A study of Mus musculus with 4 samples.

Results

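The proteasome genes described here are the 50 rows, of 41324 in the deposited table, whose symbols begin with Psma to Psmg followed by a digit. Symbols holding -ps were to be left out, but 0 rows held it. By prefix, 19 genes belong to the 20S core (Psma and Psmb), 21 to the 19S regulatory particle (Psmc and Psmd), 5 to the activators (Psme) and 4 to the assembly chaperones (Psmg). The remaining gene, Psmf1, encodes an inhibitor. The prefix rule also takes in Psmc3ip, which encodes a recombination cofactor and no proteasome subunit, so it is kept in the counts and named apart.

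RAW264.7 cells are a mouse macrophage line. They were left untreated, or held in 10 µg/ml actinomycin D, which binds DNA and blocks transcription, for 2, 4 or 6 h. Each time had 1 library of rRNA-depleted RNA that the labels call cytoplasmic, and nothing in the labels tells whether different times were different cultures. No time point therefore had a replicate check. P-values rested on the spread of 4 libraries around a line or a curve, which the tests estimated partly from other genes. All 7 macrophage markers were present, with Itgam lowest at 21.6 CPM (a depth-scaled count, defined below) in untreated cells, and all 13 markers of other cell types stayed under 1 CPM in every library.

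The proteasome is the barrel-shaped protease that degrades ubiquitin-tagged proteins in the cytosol and nucleus. Alpha rings gate the barrel, beta rings hold the proteolytic sites, and the 19S particle binds ubiquitin, unfolds the substrate with its ring of ATPases and removes the tag with its lid. In macrophages and other immune cells, interferon can swap the 3 catalytic beta subunits for immunoproteasome forms, which favour peptides suited to MHC class I.

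Total gene counts were 35669434, 38260540, 70289647 and 12762100 at 0, 2, 4 and 6 h, and the proteasome genes took 0.465%, 0.714%, 0.724% and 0.621% of them. Such shares move with every other RNA, so levels are given as CPM, counts scaled to a common depth after TMM adjustment, which places the median gene close to a flat course. Slopes are in log2 per h, and a slope above 0 describes an mRNA whose share grew, which slower loss than the median gene's can give as well as a gain. Of 10837 genes with a mean CPM of at least 1, 1817 fell and 870 rose by edgeR's quasi-likelihood test with a Benjamini-Hochberg adjusted p below 0.05. Falls made up 67.6% of these calls. That share was 86.5% with total counts, 86.9% with total counts lacking 4 rRNA-like genes, 95.2% with ribosomal protein scaling and 98.6% with the authors' divisors. Relative to TMM the median gene moved over 6 h by 0.13 log2 with total counts, −0.35 with ribosomal protein scaling and −0.53 with the authors' divisors.

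Slopes of the tested proteasome mRNAs lay above 0 for 38 and below 0 for 10, beside 5477 and 5360 of all 10837 genes tested. Of the 10 members below 0, 2 passed the test. Psmg3, a chaperone of 20S assembly, and Psmd7, a lid subunit, fell. Of 48 members tested, 2 fell and 0 rose by edgeR, beside 16.8% and 8.03% of all genes tested. At an unadjusted p under 0.05, 3 members lay on the falling and 14 on the rising side, beside 26.6% and 20.3% of all genes. DESeq2's Wald test called 2 falls and 11 rises, beside 20% and 14.1% of all genes. The median slope of the 48 was 0.043 log2 per h, against 0.0014 for all genes tested. With ribosomal protein scaling the members' median was −0.015 and with the authors' divisors −0.044, but the median of all genes then lay at −0.057 and −0.086. The distance between both medians was 0.039 to 0.042 under the 6 scalings. A scaling shifts all genes nearly alike, so this distance was nearly fixed in advance. Without the untreated library the distance was 0.0061 and the members' median 0.0067.

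**Figure D1:**
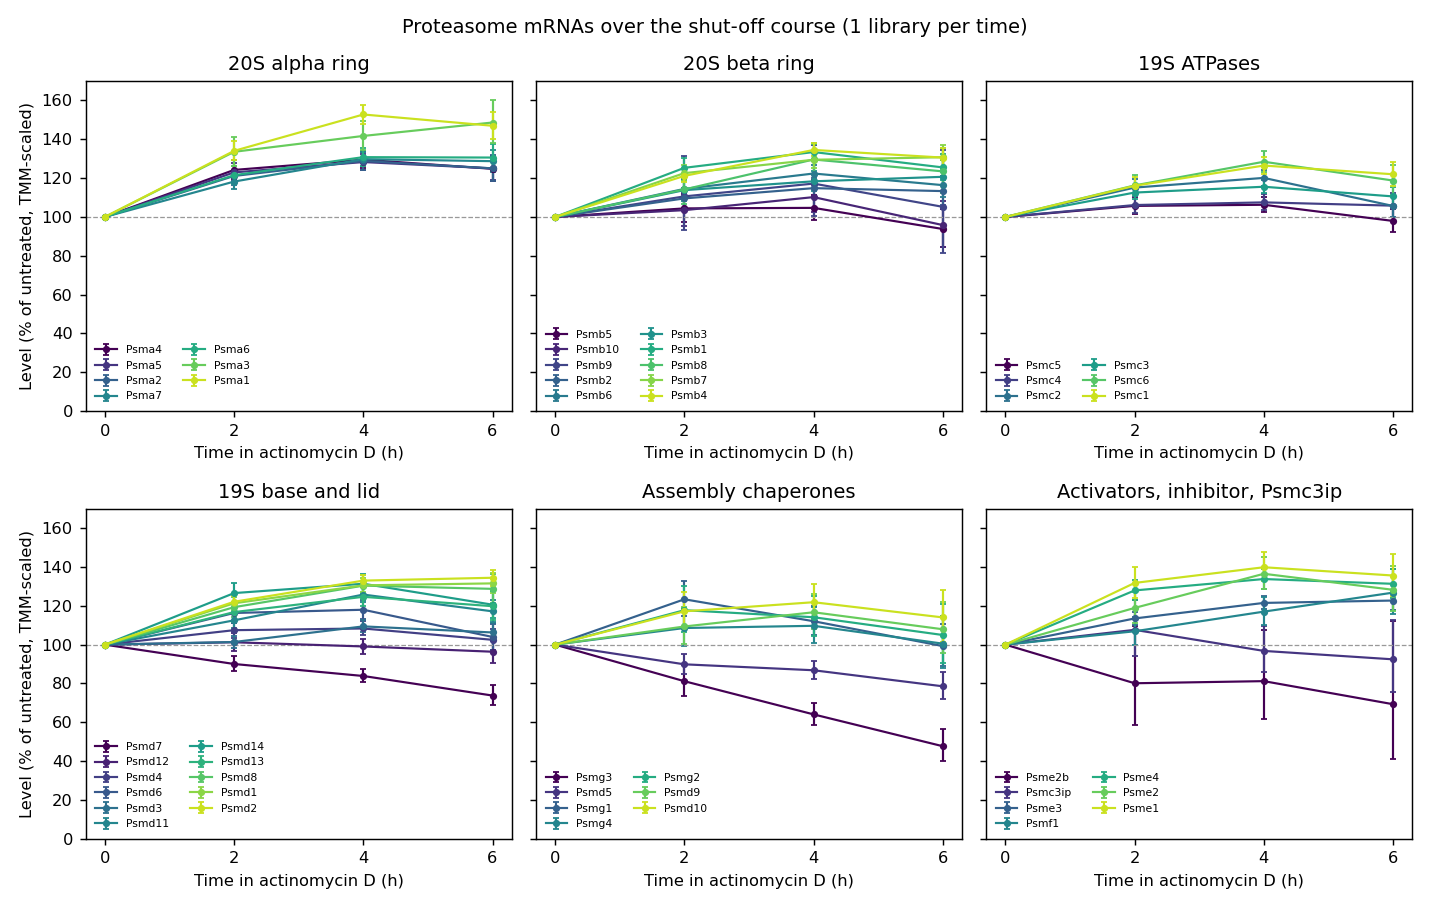
Level of each tested proteasome mRNA as a percentage of the untreated library (y axis) against hours in actinomycin D (x axis), in 6 panels by structural group; bars are exact 95% counting intervals and each time is 1 library. Most courses climb to between 100 and 140% by 4 h, while Psmg3, Psmd7, Psmd5 and Psme2b lie below 100% from 2 h on.

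The members' separation from the typical gene arose early. From 0 to 2 h 44 of 48 members had a higher scaled level, beside 5531 of the 10837 genes tested. The members' median step was 0.21 log2, against 0.010 for all genes tested. Psmg3, Psmd7, Psmd5 and Psme2b were the 4 members without a higher level. From 2 to 4 h 41 members were higher, beside 5394 of all genes, with median steps of 0.081 and −0.0013. From 4 to 6 h 7 members were higher (Psma3, Psmb3, Psmb7, Psmd1, Psmd2, Psme3 and Psmf1), beside 5453 of all genes. The median step was −0.063 for the members and 0.0012 for all genes. As percentages of the untreated level, the members' medians were 116%, 122% and 118% at 2, 4 and 6 h.

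Curvature was tested with a squared-time term, which left each gene 1 residual degree of freedom, so its p-values leaned on the spread of other genes. By edgeR 26 of 48 members bent downward, beside 10.7% of all genes tested, and 0 bent upward, beside 18% of all genes. Upward bends at an unadjusted p under 0.05 numbered 0, beside 22.9% of all genes, and DESeq2 called 0, beside 8.96%. DESeq2 called 3 downward bends among the members, those of Psmd14, Psma1 and Psmb1, beside 1.19% of all genes. With ribosomal protein scaling or the authors' divisors 2 members bent downward, Psmd14 and Psma1, beside 0.932% and 0.517% of all genes. With total counts 45 did, beside 44.1% of all genes. The 26 were Psma1 to Psma7, Psmb1, Psmb4, Psmb6, Psmb7, Psmc1, Psmc2, Psmc3, Psmc6, Psmd1, Psmd2, Psmd6, Psmd8, Psmd11, Psmd13, Psmd14, Psme1, Psme2, Psme4 and Psmg1. The 6 h library was the shallowest, and without it no bend could be tested, while 23 members rose and 1 fell on the straight line, beside 11.6% and 21.6% of all genes.

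Psmg3 encodes the chaperone PAC3, which helps to build the alpha ring. Its level was 26.4 CPM untreated and 21.4, 16.9 and 12.6 CPM at 2, 4 and 6 h, from 804, 928, 1285 and 154 counts. Each time lay below the one before. The level at 6 h was 47.7% of untreated (counting interval 39.9 to 56.7%), and the fitted slope was −0.18 ± 0.023 (log2 per h, SE, n = 4 libraries; adjusted p = 0.0201 by edgeR). Psmg3 occupies chromosome 5, 139823592 to 139826885, minus strand (mm10), and its annotated exons overlap those of Gm26938 on the same strand. The fall missed the test without the 4 h library (edgeR adjusted p = 0.0786) and with total counts (0.0858), with slopes of −0.18 and −0.15.

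The other 3 assembly chaperones did not pass the slope test by edgeR over the 4 libraries. Psmg4, the chaperone PAC4 that pairs with PAC3, stood at 109%, 110% and 101% of untreated (slope 0.0028, edgeR adjusted p = 0.932). Psmg1 and Psmg2, which encode the PAC1 and PAC2 pair, stood at 99.3% and 105% at 6 h after 123% and 118% at 2 h. The slopes of these 3 genes lay between −0.0084 and 0.0088, and their 95% intervals (lowest bound −0.095) did not meet that of Psmg3 (−0.24 to −0.12). Differences between these slopes were not tested, and all share the same libraries. Without the untreated library Psmg1 fell too (slope −0.078, edgeR adjusted p = 0.0494), as did Psmg3. In untreated cells the median of the 4 assembly genes was 33.1 CPM per kb of transcript, with Psmg4 highest at 46.5, and the median of the alpha ring was 120.

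Psmd7 encodes the lid scaffold Rpn8, the inactive partner of the deubiquitinase Psmd14. It stood at 121 CPM untreated and at 109, 101 and 89.0 CPM at 2, 4 and 6 h. These are 90.0%, 83.9% and 73.8% of untreated, each time below the one before. The slope was −0.071 ± 0.012 (log2 per h, SE; adjusted p = 0.0302 by edgeR). Psmd7 occupies chromosome 8, 107580381 to 107588464, minus strand, with no annotated exon of another gene over its own. The call was lost with total counts (edgeR adjusted p = 0.706) and without the 2 h (0.0618), 4 h (0.124) or 6 h library (0.0591), with slopes of −0.050 to −0.073.

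The other 7 lid subunits ran from Psmd12 at −0.0095 to Psmd8 at 0.062 log2 per h, and none passed the slope test by edgeR. Psmd14, the metalloprotease that clips ubiquitin chains off the substrate, stood at 127%, 131% and 121% of untreated (slope 0.044, edgeR adjusted p = 0.272; bend adjusted p = 0.0017). Psmd7 and Psmd14 form a heterodimer in the particle, and at 6 h their mRNAs stood at 73.8% and 121% of untreated. The interval of Psmd7's slope, −0.10 to −0.038, did not meet that of Psmd14, −0.031 to 0.12. This difference was not tested, both genes share the same libraries, and a straight line describes Psmd14's bent course poorly. Psmd12 stood at 96.4% and Psmd3, the most abundant lid mRNA, at 106% at 6 h. Psmd6, Psmd11 and Psmd13 lay between 104% and 120%.

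None of the 3 scaffold and receptor genes of the 19S base passed the slope test by edgeR. Psmd2, the largest scaffold with Psmd1, was the most abundant member by CPM, at 394 untreated and 481, 524 and 530 at 2, 4 and 6 h. Its slope was 0.070 ± 0.019 log2 per h (edgeR adjusted p = 0.0571) and its bend adjusted p was 0.0117. Psmd1 ran beside it, at 121%, 131% and 132% of untreated. With the authors' divisors the slopes of Psmd2 and Psmd1 were −0.017 and −0.022 (adjusted p = 0.135 and 0.0858). The ubiquitin receptor Psmd4 (Rpn10) stood at 107%, 108% and 102%, with a slope of 0.0062 (edgeR adjusted p = 0.763).

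The 6 ATPases, which thread substrates into the barrel, had slopes from −0.0036 (Psmc5) to 0.050 (Psmc1) and none passed the slope test by edgeR. Psmc5 stood at 97.9% of untreated at 6 h and Psmc4 at 106%, while Psmc1 stood at 122% and Psmc6 at 119%. Psmc2, Psmc3, Psmc6 and Psmc1 bent downward (edgeR adjusted p from 0.0037 to 0.0250). Psmc2 peaked at 174 CPM at 4 h, from 145 untreated, and stood at 153 at 6 h.

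Psmd5, Psmd9 and Psmd10 encode chaperones of the base. Psmd5 stood at 69.0 CPM untreated and 62.0, 59.9 and 54.2 at 2, 4 and 6 h, again lower at each time. Its slope of −0.055 ± 0.015 log2 per h missed the test (edgeR adjusted p = 0.0571), and it passed as a fall with total counts lacking the rRNA-like genes (0.0406), ribosomal protein scaling (0.0325) and the authors' divisors (0.0155). Psmd9 stood at 108% and Psmd10 at 114% of untreated at 6 h (slopes 0.022 and 0.032, edgeR adjusted p = 0.457 and 0.340).

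**Figure D2:**
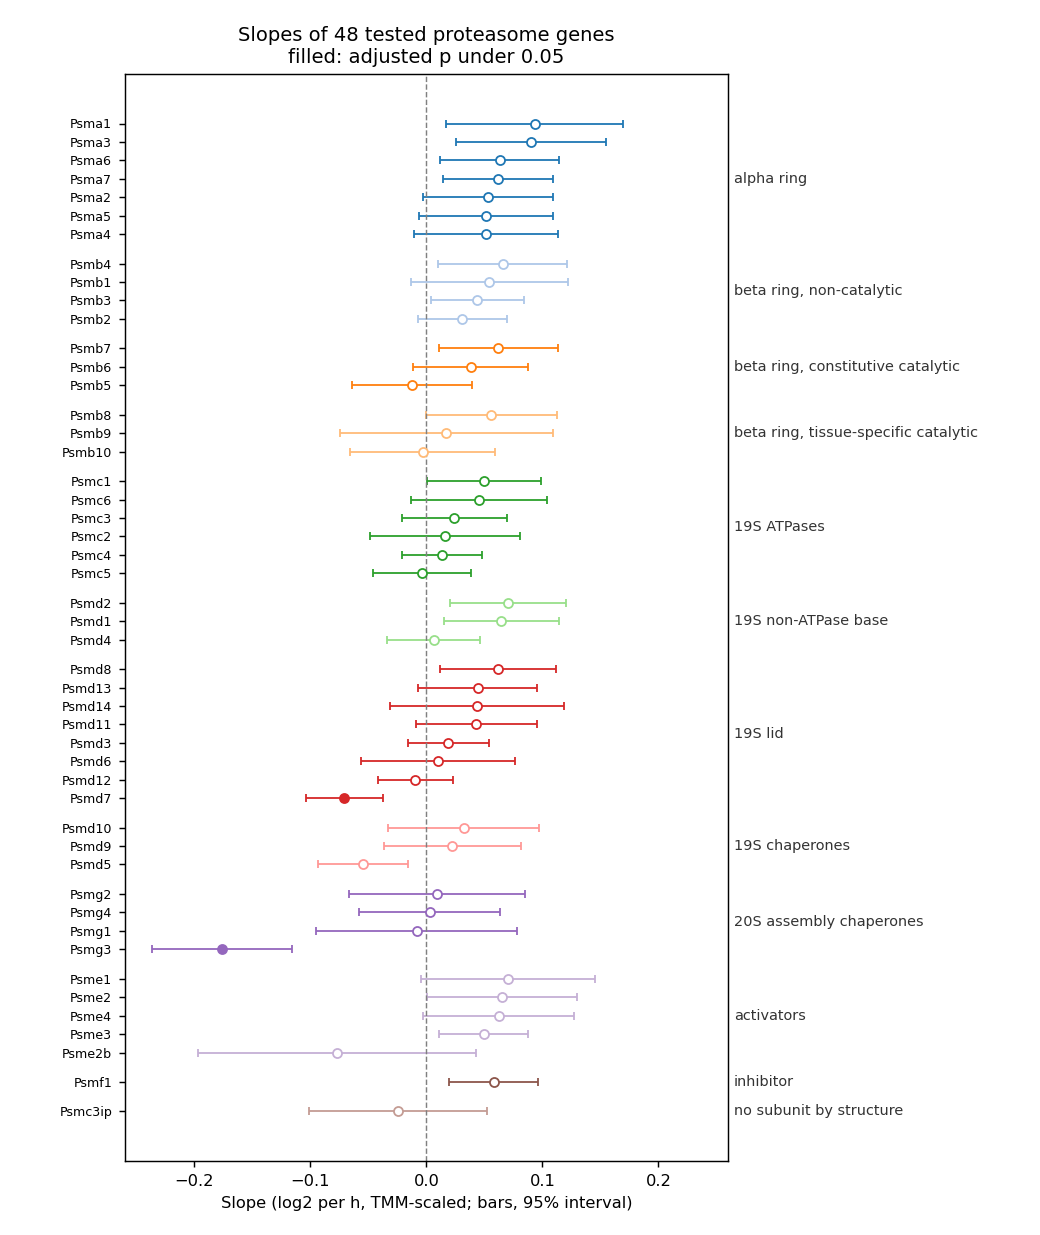
Slope of each of the 48 tested proteasome genes in log2 per h after TMM scaling (x axis), grouped by place in the particle (y axis), with 95% intervals from edgeR as bars; filled points passed the test at an adjusted p under 0.05. Psmg3 (−0.18) and Psmd7 (−0.071) are the filled points, and the 7 alpha subunits lie between 0.051 and 0.093.

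Alpha-ring mRNAs had the highest median slope of the core's groups, 0.062 log2 per h. All 7 tested members had slopes between 0.051 (Psma4) and 0.093 (Psma1), above each of the 6 ATPases; this difference between groups was not tested, and the genes' 95% intervals overlapped. Psma1 stood at 154 CPM untreated and 207, 235 and 227 at 2, 4 and 6 h, or 134%, 153% and 147% of untreated (slope 0.093 ± 0.029, edgeR adjusted p = 0.0729). Psma3 stood at 134%, 142% and 149% (slope 0.090, adjusted p = 0.0581). The other 5 lay between 125% and 131% at 6 h. All 7 bent downward by edgeR (adjusted p from 0.00090 to 0.0247), and 6 of them stood lower at 6 h than at 4 h, Psma3 being the exception.

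Psma8, a testis-specific alpha subunit, was not tested because its mean CPM was under 1. It had 11, 35, 57 and 22 counts, or 0.361, 0.808, 0.751 and 1.80 CPM. At 6 h this was 498% of untreated, with a counting interval of 231 to 1137%. Psmb11, the beta subunit of the thymus form, had 0 counts in all 4 libraries, which allows up to 3 counts in each.

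Beta-ring mRNAs spread over more of the range than the alpha ring. The 4 members without a catalytic site had slopes of 0.031 (Psmb2) to 0.066 (Psmb4). Psmb4 was the most abundant member per length, at 231 CPM per kb of transcript untreated and 301 at 6 h. It stood at 121%, 135% and 131% of untreated, and its bend passed (edgeR adjusted p = 0.0060), as did that of Psmb1 (0.00235). None of these 4 passed the slope test by edgeR.

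None of the 3 constitutive catalytic subunits passed the slope test by edgeR, and differences between their courses were not tested. Psmb5, the chymotrypsin-like subunit, stood at 45.1 CPM untreated and at 47.1, 47.2 and 42.3 at 2, 4 and 6 h (slope −0.013, edgeR adjusted p = 0.629). The caspase-like Psmb6 went from 132 to 151, 161 and 153 CPM (slope 0.038, adjusted p = 0.170). The trypsin-like Psmb7 went from 164 to 201, 212 and 214 CPM (slope 0.062, adjusted p = 0.0745). Psmb5 ended at 93.8% of untreated (counting interval 84.6 to 104%) and Psmb7 at 131% (125 to 137%).

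Immunoproteasome forms were present in the untreated cells at lower levels per length than the subunits they replace. Psmb8, which replaces Psmb5, had 28.1 CPM per kb of transcript against 50.1. Psmb10, which replaces Psmb7, lay far under its 141, and Psmb9, which replaces Psmb6, had 5.35 against 165. The ratios of immuno to constitutive form were 0.561, 0.170 and 0.0324 in that order, and 0.270, 0.385 and 0.0280 when all annotated exons were taken as the length, so each stayed under 1. None of the 3 immuno forms passed the slope or the bend test by edgeR. At 6 h Psmb8 stood at 123% of untreated (slope 0.056, adjusted p = 0.109), Psmb9 at 105% (0.017, 0.713) and Psmb10 at 95.8% (−0.0030, 0.928). The ratio of Psmb8 to Psmb5 went from 0.561 untreated to 0.614, 0.695 and 0.739 at 2, 4 and 6 h, and that of Psmb10 to Psmb7 from 0.170 to 0.143, 0.145 and 0.124. These ratios had no replicate and were not tested. Psmb8 and Psmb9 are neighbours on chromosome 17 (34197721 to 34201454 and 34181987 to 34187764), and Psmb9's exons overlap those of Tap1 on the other strand.

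**Figure D3:**
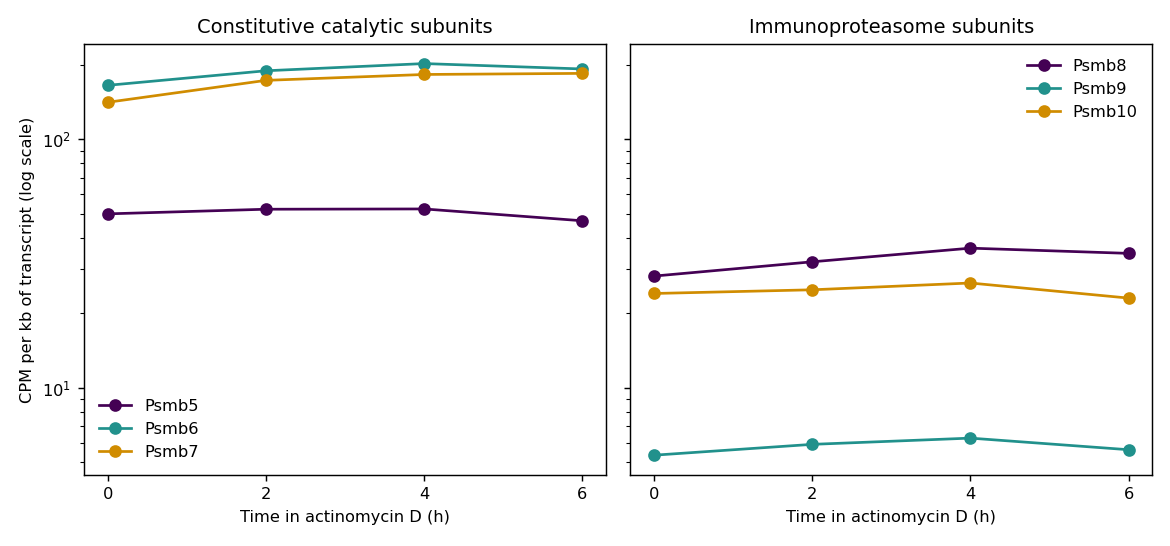
Level per length of the constitutive catalytic subunits Psmb5, Psmb6 and Psmb7 (left) and of the immunoproteasome forms Psmb8, Psmb9 and Psmb10 (right), as CPM per kb of transcript on a log axis, against hours in actinomycin D, with 1 library per point. Every constitutive subunit lies above every immuno form at each time, with Psmb9 lowest at 5.35 untreated.

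Activators cap the barrel in place of the 19S particle. Psme1 and Psme2, the interferon-inducible pair that forms PA28, lie side by side on chromosome 14 (55578123 to 55581529 and 55587441 to 55591113). Psme1 stood at 132%, 140% and 136% of untreated (slope 0.070, edgeR adjusted p = 0.120; bend adjusted p = 0.0070), and Psme2 at 119%, 137% and 128% (slope 0.065, adjusted p = 0.105; bend 0.0349). Psme3, the nuclear PA28-gamma, was the most abundant activator, with 233 CPM untreated and 264, 283 and 286 at 2, 4 and 6 h (slope 0.049, adjusted p = 0.0671). Psme4, which encodes PA200, stood at 128%, 134% and 131% (slope 0.062, adjusted p = 0.115; bend 0.0060).

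Psme2b is a near copy of Psme2, identical at 715 of 720 coding bases including the stop codon. It had 79, 90, 160 and 22 counts and stood at 69.3% of untreated at 6 h (counting interval 41.1 to 112%; slope −0.077, edgeR adjusted p = 0.233). Its exons also overlap 9930111J21Rik1 on the same strand. No source used here tells how reads fitting both copies were counted, so its values are uncertain.

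Psmf1, the proteasome-binding protein PI31, was the member closest to the test on the rising side. It stood at 47.1 CPM untreated and 50.3, 55.1 and 59.7 at 2, 4 and 6 h, higher at each time. Its slope was 0.058 ± 0.014 log2 per h (edgeR adjusted p = 0.0507) and 6 h stood at 127% of untreated. The slope was −0.00028 with ribosomal protein scaling and −0.029 with the authors' divisors (adjusted p = 0.993 and 0.247). Psmc3ip, the recombination cofactor, stood at 12.4 CPM untreated and 92.4% of that at 6 h (slope −0.025, adjusted p = 0.527).

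The authors' deposited table gives half-lives, and these are set beside the slopes. Their scales differ, because the half-lives come from the signal made with the authors' divisors and the slopes from TMM. With the authors' divisors 46 of the 48 members tested had a slope below 0, against 10 with TMM. The hours therefore depend on that scaling. A log-linear fit through the untreated value over 0, 2 and 4 h returned the half-life in the authors' deposited table within 0.1% for 14071 of 14071 genes with 4 values above 0, and for 49 of 49 proteasome genes. The same fit with the 6 h library included did so for 24 genes, so the 6 h library does not enter these half-lives. Of the 48 tested members, 45 had a half-life above 0 in the authors' deposited table, with a median of 20.8 h, against 7.43 h for all tested genes with one above 0. Half-lives of 12 h or less in the authors' deposited table belonged to 12 of the 48 members, beside 60.8% of tested genes.

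In the authors' deposited table Psmg3 had the shortest half-life of the members, 3.57 h, followed by Psme2b at 4.69 h, Psmd7 at 5.34 h and Psmd5 at 5.63 h. Next in the authors' deposited table came Psmd12 at 8.18 h, Psmc3ip at 8.32 h and Psmb5 at 9.81 h. Psma1, Psma3 and Psme1 had negative half-lives in the authors' deposited table (−23.2, −47.6 and −65.5 h), which means that the line fitted over 0 to 4 h pointed upward. With the 6 h library added to the same fit, Psmg3 stood at 3.70 h, Psmd7 at 5.90 h and Psmd5 at 6.40 h.

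Long half-lives were not well fixed by 3 points. Of 45 members above 0 in both fits, 7 differed by over 1.5 times. Psme4 had 542 h in the authors' deposited table and 71.2 h with the 6 h library. Psmb1 had 178 h in the authors' deposited table against 44.6 h, Psme2 152 against 51.5 h, Psmb4 123 against 58.2 h, Psmd14 115 against 33.7 h and Psma4 64.6 against 37.3 h. Psmf1 moved the other way, from 15.0 h in the authors' deposited table to 23.5 h.

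**Figure D4:**
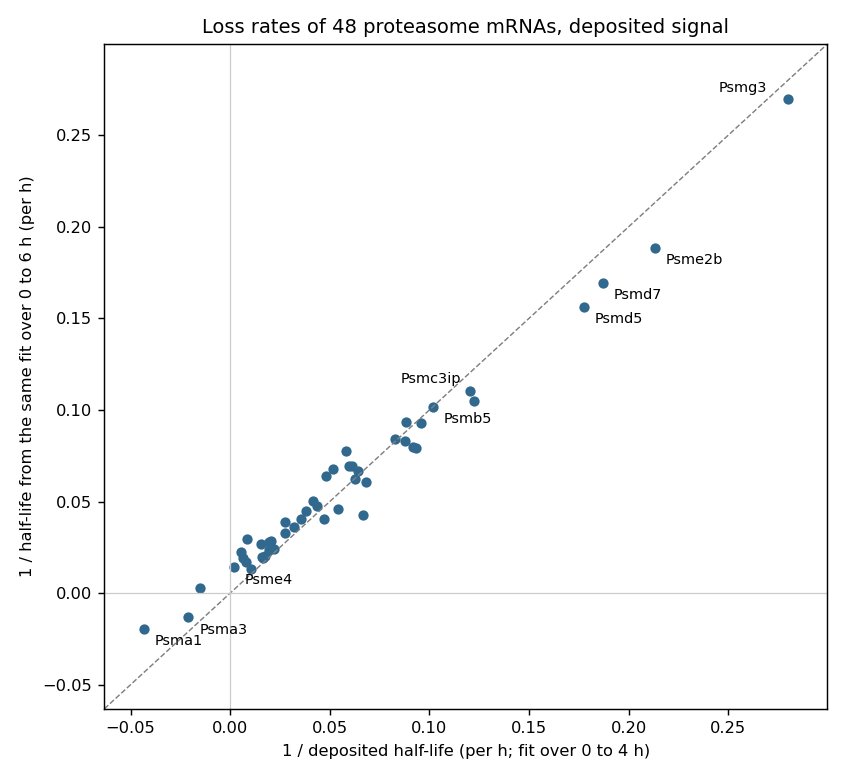
Inverse of the half-life in the authors' deposited table (x axis, per h, fit over 0 to 4 h) against the inverse half-life from the same fit over 0 to 6 h (y axis, per h) for the 48 tested proteasome mRNAs, with the line of equality dashed. Psmg3, Psme2b, Psmd7 and Psmd5 lie apart at the fast end, and values below 0 mark an upward line in that fit.

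Proteasome mRNAs carry short 3′ untranslated regions, where elements that speed decay often lie. In the GENCODE M21 annotation of GRCm38 (mm10) the 48 tested members had a median 3′ UTR of 200.5 bases, against 1027 for 9549 tested genes with a 3′ UTR. The lengths ran from 44 bases in Psme2 to 2842 in Psmd5. Across the 48 genes, Pearson's r between log2 3′ UTR length and slope was 0.093 and Spearman's rho 0.16, as a description of genes that share the same 4 libraries.

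The AU-rich heptamer UAUUUAU, searched on the sense strand with overlaps counted, was in the 3′ UTR of 5 members (10.4%), against 28.7% of tested genes with a 3′ UTR. The Pumilio element UGUANAUA was also in 5 members (10.4%), against 25.4%. Shorter UTRs offer fewer places for a match, and the shares were not matched for length. Psmg3 and Psmd7, the members that fell, had neither element in UTRs of 329 and 503 bases, and no AUUUA pentamer. Psmd5, the lowest in slope of the 19S chaperones, had 3 Pumilio matches. The sites below show each member with the heptamer, with 1 of the matches in Psmb1, and then the Pumilio matches, with the element in capitals and 10 flanking bases on each side.
Psma2, UTR base 1000: guuacucgugUAUUUAUuguauaucug
Psmb1, UTR base 395: cgugcaugcaUAUUUAUgugaacaggg
Psmc6, UTR base 938: aaauugagauUAUUUAUaguuaauucu
Psme3, UTR base 1048: auguuucucgUAUUUAUaguauugugc
Psmc3ip, UTR base 212: guauuuguaaUAUUUAUuguaauauaa
Psmd5, UTR base 406: uuauauuauuUGUAUAUAaggaauaaua
Psmd5, UTR base 1412: aaaagauuuaUGUAAAUAuaugaguaca
Psmd5, UTR base 2371: auuugguuauUGUACAUAgccuaauugu
Psma3, UTR base 401: aauacaaauaUGUAUAUAuacagacaca
Psma3, UTR base 423: gacacacaugUGUAUAUAcauuuaaauu
Psma5, UTR base 122: uuaugaagucUGUACAUAacagcaauuc
Psmf1, UTR base 1503: gguuugggaaUGUAGAUAacuuggaccc
Psmg4, UTR base 26: guuuguaacgUGUAUAUAaaugacauug

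Members with these elements lay on both sides of the members' median slope of 0.043. With the heptamer, Psma2, Psmb1, Psmc6 and Psme3 had slopes of 0.045 to 0.054 and Psmc3ip −0.025. With the Pumilio element, Psma3 (0.090), Psmf1 (0.058) and Psma5 (0.051) lay on the slow side, and Psmg4 (0.0028) and Psmd5 (−0.055) below the median. A match is a description of the sequence and was not tested as a site of decay.

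Genes that work with the proteasome but carry other symbols reached lower slopes than the proteasome genes. Of 38 such genes tested, 7 fell and 7 rose by edgeR, beside 16.8% and 8.03% of all genes, with a median slope of 0.029. The falls lay near the share of all genes. By edgeR's bend test 10 of the 38 bent downward and 6 upward, beside 10.7% and 18% of all genes, and straight lines describe such courses poorly. Slopes ran from −0.38 to 0.091, against −0.18 to 0.093 for the proteasome genes and −1.4 to 0.81 for all genes tested. No rise remained past the test with total counts, with total counts lacking the rRNA-like genes, with ribosomal protein scaling, with the authors' divisors, or without the untreated or the 4 h library. Of all genes, 0.203% to 6.62% rose under these settings.

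The intrinsic ubiquitin receptor Adrm1 (Rpn13) fell. Its level was 79.2%, 58.7% and 47.4% of untreated at 2, 4 and 6 h, with a fitted slope of −0.18 ± 0.015 (log2 per h, SE; adjusted p = 0.0148 by edgeR). The call was lost with total counts (adjusted p = 0.0977). Uchl5, the deubiquitinase that Adrm1 anchors, stood at 122%, 127% and 109% (slope 0.023, adjusted p = 0.589), and the other intrinsic receptor, Psmd4, at 102% at 6 h. Usp14, the second deubiquitinase of the 19S particle, rose, to 125%, 142% and 143% (slope 0.087, edgeR adjusted p = 0.0471). Sem1, the smallest lid subunit, stood at 126% at 6 h (adjusted p = 0.0777).

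Assembly and import factors divided. Pomp, which matures the beta ring alongside the Psmg chaperones, rose to 141% of untreated at 6 h (slope 0.084, edgeR adjusted p = 0.0393; −0.0033 with the authors' divisors). Akirin2, which brings proteasomes into the nucleus, fell (slope −0.38, edgeR adjusted p = 0.0326). It stood at 42.9%, 22.5% and 23.1% of untreated at 2, 4 and 6 h, the last from 85 counts. Its course bent upward (edgeR adjusted p = 0.0060), with no lower level at 6 h than at 4 h. Fbxo7, a partner of Psmf1, fell to 62.6% (slope −0.12, edgeR adjusted p = 0.0426). The fall of Fbxo7 was lost with total counts (adjusted p = 0.383) and without the 2 h (0.0822), 4 h (0.162) or 6 h library (0.0971). Akirin2 was also the steepest of the 38 tested genes, and it missed the test without the 4 h library (adjusted p = 0.0618).

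The transcription factors of proteasome genes were unlike each other. Nfe2l1, which raises proteasome synthesis when the particle is blocked, stood at 84.5%, 86.9% and 89.5% of untreated (slope −0.023, edgeR adjusted p = 0.398). Nfe2l2, the oxidative stress factor, fell to 55.2%, 37.6% and 29.2% (slope −0.30 ± 0.029, adjusted p = 0.0157) and passed under all 12 alternatives tried. Ddi2, the protease that activates the Nfe2l1 protein, fell to 68.9% at 6 h (slope −0.084, adjusted p = 0.0422), and this was lost without the untreated, the 4 h or the 6 h library and with total counts.

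The polyubiquitin gene Ubb fell to 84.0%, 45.6% and 30.9% of untreated (slope −0.30, edgeR adjusted p = 0.0168), also under all 12 alternatives. Rps27a, a fusion of ubiquitin with a ribosomal protein, stood at 150% at 6 h (adjusted p = 0.0620). Ubiquitin genes have near-identical copies in the genome, so their counts are uncertain. The E1 enzyme Uba1, which activates ubiquitin, rose to 132% (slope 0.065, adjusted p = 0.0390).

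Of the factors that hand substrates over, Rad23b (124%), Ubqln1 (131%) and Ubqln2 (133% of untreated at 6 h) rose (edgeR adjusted p = 0.0445, 0.0390 and 0.0398). The slopes of these 3 turned below 0 with the authors' divisors, as did that of Uba1, and that of Rad23b also with ribosomal protein scaling. The segregase Vcp, which pulls substrates out of complexes, stood at 130% (adjusted p = 0.0600). Zfand2b fell to 39.9% (slope −0.21, adjusted p = 0.0205), which was lost without the 4 h library (adjusted p = 0.0780). Zfand5, an activator of the 26S particle, stood at 39.5%, 28.7% and 33.5% and missed the slope test (adjusted p = 0.0663). Its course bent upward (edgeR adjusted p = 0.00011), so a straight line describes it poorly. Erap1, which trims proteasome products in the endoplasmic reticulum, rose to 144% (slope 0.089, adjusted p = 0.0420).

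**Figure D5:**
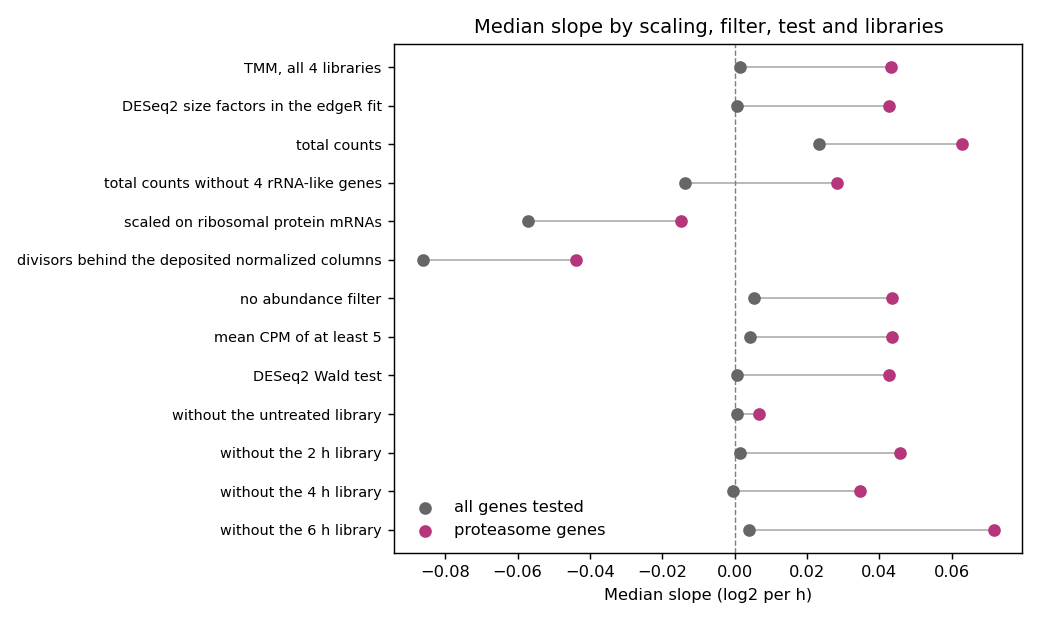
Median slope in log2 per h (x axis) of all genes tested (grey) and of the proteasome genes tested (purple) for each library scaling, abundance filter, test and set of libraries (y axis). The proteasome median lies above that of all genes in every setting drawn, with the gap smallest, 0.0061, without the untreated library. Scalings shift all genes nearly alike, so the gap could hardly differ among them.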

How the data were processed

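RNA of RAW264.7 cells was sequenced at 4 times, 1 library each, grouped by the treatment in the labels. Per the submitters' processing notes, the tools were featureCounts, Subread 1.6.3 and STAR 2.5.3a, and the genome was mm10. No source used here gives the annotation, strand setting or treatment of reads with several matches. The deposited table holds raw counts per gene, used as deposited, and a normalized signal that the authors made by dividing each library's counts by 1 number (1300, 2250, 4476 and 748 at 0, 2, 4 and 6 h). Its half-lives were read as a score from the authors, and its R2 as a fraction from the authors that was not used further. Columns not matched to a sample numbered 0.

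For slopes and bends edgeR 4.0.16 was run under R 4.3.3 (TMM, mean CPM of at least 1, quasi-likelihood test, 2 and 1 residual degrees of freedom, Benjamini-Hochberg over 10837 genes). The quasi-likelihood test moderated each gene's variance with those of all genes tested. Steps used a prior count of 0.5. Intervals on percentages of untreated are exact binomial (Clopper-Pearson, 95%, scipy 1.17.1) and cover counting error only. Lengths and 3′ UTRs came from 1 protein-coding transcript per gene of GENCODE M21 (GRCm38), complete, principal and with the longest coding sequence first. Ties went to the longest transcript, and whether that form is the one expressed was not tested. CPM per kb, 3′ UTR lengths and the listed sites depend on that choice, most for genes with long UTR forms.

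On data simulated for this slope fit over 10837 genes, the test called 177 of 200 genes whose simulated slope was 0.25 (log2 per h), beside 10 false calls, and 200 of 200 at 0.5, beside 8. Slopes as weak as those of most members were not simulated.

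Alternatives were DESeq2 1.42.0 size factors and its Wald test, total counts with and without 4 rRNA-like genes, scaling on 83 ribosomal protein rows, the authors' divisors, no filter or a mean CPM of at least 5, and each library left out. Named were the catalytic, immuno, activator, inhibitor and assembly genes, the extremes of each ring, base and lid, every member past a test or untested, and linked genes past the test or fixed by role (39 rows matched of 44 symbols, alternative names included). Linked genes named beyond this rule were chosen after their values were seen. Some linked genes are counted but not reported here by name. The members and lists were chosen with earlier results of these data known. Of 50 members, 15 have exons overlapping another annotated gene, 4 on the same strand.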

Additional observations from a re-analysis of the deposited data

How the results depend on the processing

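Depth limits the 6 h values most, and no time point has a replicate. Of the 2 proteasome genes that fell, 0 remained past the test by edgeR with total counts, where 12.2% of all genes fell. Leaving out 1 library gave 3 falls (untreated), 1 (2 h), 0 (4 h) and 1 (6 h). Among all genes 14.9%, 18.2%, 3.15% and 21.6% then fell, in that order. Falls numbered 3 with total counts lacking the rRNA-like genes, 7 with ribosomal protein scaling and 26 with the authors' divisors, beside 19.3%, 23.3% and 45.8% of all genes. Rises, 0 with TMM, numbered 1 without a filter (Psma3) and 1 at a mean CPM of at least 5 (Psmf1). They numbered 1 without the 2 h library (Psma3), 11 with DESeq2's Wald test and 23 without the 6 h library. In the same order 4.96%, 10.1%, 4.02%, 14.1% and 11.6% of all genes rose. Downward bends, 26 with TMM, numbered 45 with total counts, 2 with ribosomal protein scaling, 2 with the authors' divisors and 3 with DESeq2's Wald test. The shares of all genes were 44.1%, 0.932%, 0.517% and 1.19% in that order. The members' median slope was −0.015 with ribosomal protein scaling, −0.044 with the authors' divisors, 0.0067 without the untreated and 0.072 without the 6 h library. Linked genes that fell, 7 with TMM, numbered 19 with the authors' divisors and 3 without the 4 h library, beside 45.8% and 3.15% of all genes. Linked genes that rose, 7 with TMM, numbered 0 with total counts, with or without the 4 rRNA-like genes, beside 1.89% and 2.92% of all genes. With ribosomal protein scaling or the authors' divisors 0 rose, beside 1.16% and 0.664%. Without the untreated or the 4 h library 0 rose, beside 6.62% and 0.203%. Linked rises numbered 2 without the 2 h library, beside 4.02%. They numbered 11 with DESeq2's Wald test or without the 6 h library, beside 14.1% and 11.6%. With the authors' divisors the slopes of Pomp (−0.0033), Rad23b (−0.037), Uba1 (−0.022), Ubqln1 (−0.020), Ubqln2 (−0.020) and Usp14 (−0.00010) lay below 0, and with ribosomal protein scaling that of Rad23b did (−0.0080). Among all tested, 342 falls and 22 rises were called when the 4 h library was left out, and without any 1 library a bend could not be tested. The scalings shift all genes by construction, and the cause of the other changes was not tested. No paired analysis was possible because each time has 1 library and the labels carry no replicate numbers.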
